A study of Mus musculus with 6 samples.

Results

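The Notch pathway was examined through 10 genes, the receptor genes Notch1, Notch2 and Notch4, the ligand genes Jag1, Jag2, Dll1 and Dll4, the transcription factor gene Rbpj and the target genes Hes1 and Hey1, taken by symbol from the 51912 genes of the deposited count files. The cells came from the aorta-gonad-mesonephros (AGM), the region around the dorsal aorta where haematopoietic stem cells first appear, of mouse embryos at E10.5. All embryos carried the MacGreen transgene (Csf1r-EGFP), a reporter in which EGFP is under the control of the Csf1r promoter and marks cells of the macrophage lineage. GFP-positive cells were sorted into CD206pos cells (GFP+CD206+) and CD206neg cells (GFP+CD206-) by surface CD206, the mannose receptor encoded by Mrc1. Each of 3 litters gave 1 library of each population, made from a pool of 3 to 5 AGM. Libraries with the same AGM number in their titles were read as coming from the same litter.

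In the Notch pathway, ligands of the Jagged and Delta-like families on a neighbouring cell bind Notch receptors, which are then cut at the membrane by an Adam protease and inside it by gamma-secretase. The released intracellular part enters the nucleus, joins the DNA-binding protein Rbpj and Mastermind-like coactivators, and turns on genes such as those of the Hes and Hey repressors. In the AGM, Notch1 signalling in the wall of the dorsal aorta is known to be required for the formation of haematopoietic stem cells, and Dll4, Jag1 and Jag2 are known as ligands of the aortic endothelium.

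The libraries held between 16730846 and 18214283 reads in genes, so 3 reads, taken here as the limit that a count of 0 allows, stand for 0.165 to 0.179 CPM before scaling, counting error only. Levels are given as scaled CPM, the CPM after TMM scaling of the library sizes, and log2 fold changes are CD206pos over CD206neg. The sorted antigen matched the labels, with Mrc1 at 1455 to 1789 scaled CPM in CD206pos libraries and 51.5 to 118 scaled CPM in CD206neg libraries. All 10 macrophage markers had reads in every group. Their summed level, which includes the sorted antigen Mrc1, was 6337 to 9220 scaled CPM in CD206pos libraries and 3496 to 4489 scaled CPM in CD206neg libraries. Of the 10, 5 were called higher in CD206pos cells and 0 lower. Csf1r and Ptprc overlapped between the groups, and Itgam went the other way, at means of 17.8 scaled CPM in CD206pos and 34.45 scaled CPM in CD206neg cells. The 8 blood progenitor markers summed to 25.0 to 80.6 scaled CPM in CD206pos libraries and 2405 to 2932 scaled CPM in CD206neg libraries, where Mpo alone gave 1493 to 2277. Kit, Gfi1b and Spink2 had 0 reads in CD206pos libraries, and Spink2 had 0, 0 and 3 reads in CD206neg libraries. The 12 endothelial markers summed to 73.1 to 108 scaled CPM in CD206pos libraries and 209 to 353 scaled CPM in CD206neg libraries, with Sox18 at 0 reads in CD206pos cells. Cldn5 had the higher mean in CD206pos cells, with 0, 0 and 167 reads there and 36, 31 and 46 reads in CD206neg libraries. Pecam1 and Egfl7 averaged 35.3 and 33.8 scaled CPM in CD206pos cells and 61.4 and 74.1 scaled CPM in CD206neg cells. Sparse sampling limits the low genes, since of the genes averaging 20 to 50 reads per library 23.4% had 0 reads in at least 1 CD206pos library and 19.9% in at least 1 CD206neg library.

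Transcripts of Notch2, Notch1, Rbpj and Hes1 were found in all 6 libraries, at mean levels of 13.1 to 65.3 scaled CPM, while the ligand genes, Hey1 and Notch4 averaged 3.13 scaled CPM or less in either population. None of the 10 genes passed the test between CD206pos and CD206neg cells. Of the 10, 7 passed the filter on low counts and 3 (Notch4, Dll1 and Dll4) did not. In edgeR's quasi-likelihood test 0 of the 7 passed at an adjusted p under 0.05, 0 had an unadjusted p under 0.05, and DESeq2 and limma-voom also called 0. Over all 12668 genes tested, 4.87% were called by edgeR, 2.97% higher and 1.9% lower in CD206pos cells. The 7 genes had log2 fold changes between -1.04 and 0.86 (median -0.11, against -0.004 over all genes tested), 3 above 0 and 4 below, with adjusted p between 0.365 and 0.93 (edgeR).

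**Figure D1:**
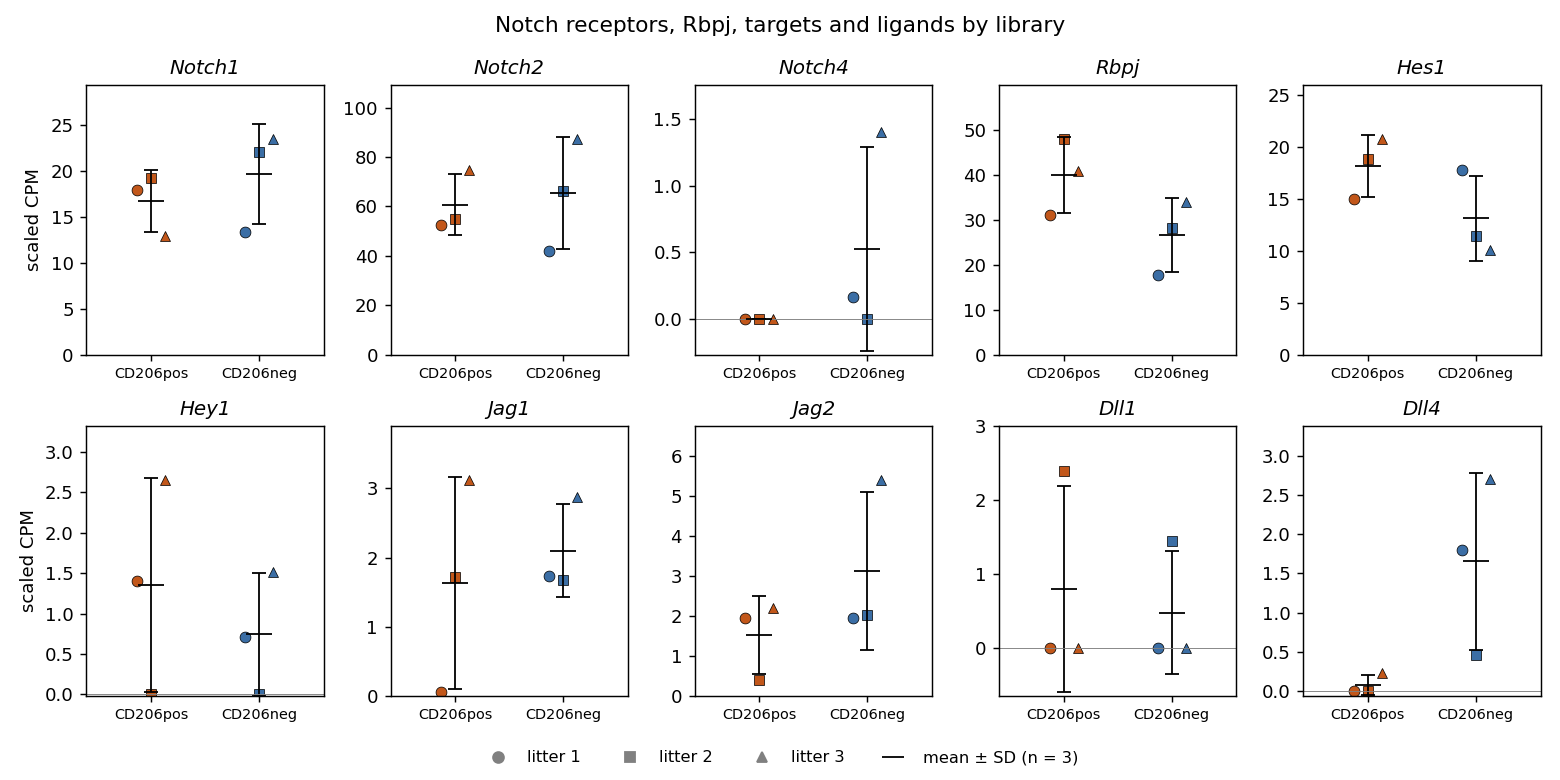
Scaled CPM of the 10 Notch genes (vertical axes, each with its own range) in CD206pos (left, orange) and CD206neg (right, blue) libraries. Symbols mark litters and bars the mean ± SD of 3 libraries; the groups overlap in every panel except that of Dll4, where CD206neg libraries reach 2.70 and CD206pos libraries stay at or under 0.231 scaled CPM.

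Among the receptors, Notch2 was the main one in both populations. Notch2 (GRCm38 chromosome 3, 98013527 to 98150361, plus strand) is the receptor known for its part in monocyte and marginal zone B cell development. It was at 52.7, 54.7 and 74.8 scaled CPM in CD206pos libraries of litters 1, 2 and 3 and at 42.1, 66.4 and 87.4 scaled CPM in CD206neg libraries. The CD206pos values lay within the wider range of the CD206neg values, with litter 3 highest in each. Notch2 had a log2 fold change of -0.11 ± 0.28 (SE), with a 95% interval of -0.75 to 0.54 and an adjusted p of 0.914 (edgeR).

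Notch1 (chromosome 2, 26457903 to 26516663, minus strand), the receptor required in the AGM for haematopoietic stem cells, was at 17.9, 19.2 and 12.9 scaled CPM in CD206pos libraries and at 13.4, 22.1 and 23.5 scaled CPM in CD206neg libraries. The groups overlapped, and the litters went different ways, with a log2 ratio of CD206pos over CD206neg of 0.42 in litter 1, -0.20 in litter 2 and -0.87 in litter 3. Over the 3 litters the log2 fold change was -0.24 ± 0.32 (SE; 95% interval -0.96 to 0.49; edgeR adjusted p = 0.799). Exons of Notch1 share 1389 of their 14232 bases with 0610009E02Rik and Gm13568 on the plus strand. Reads there are assigned to neither gene by the counting program's defaults, and sense and antisense cannot be told apart; these genes held at most 13 reads each in a library.

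Per kilobase of exonic length, Notch2 was 3.76 to 7.67 times as abundant as Notch1 in CD206pos libraries and 3.97 to 4.91 times in CD206neg libraries. Notch2 thereby made up 77.8% to 88.5% of the summed level per length of the 4 receptor genes in CD206pos libraries and 78.8% to 80.3% in CD206neg libraries. The highest ratio belonged to litter 3 of CD206pos cells, where Notch1 was lowest among the 6 libraries.

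Notch4 (chromosome 17, 34564268 to 34588503, plus strand), a receptor known from vascular endothelium, had 0 reads in each CD206pos library and 3, 0 and 25 reads in CD206neg libraries of litters 1, 2 and 3. With reads pooled by group and the 28 CD206neg reads taken as exact, 3 counts over the CD206pos group served as the limit. Against that limit the pooled Notch4 level was at least 8.94-fold lower in CD206pos cells. With the counting error of both groups, the exact binomial 95% interval of the ratio of CD206pos over CD206neg runs from 0 to 0.147. Both values cover counting error only and not the spread between libraries. Litter 3 held 25 of the 28 reads. The groups overlap at 0, and the difference did not pass (exact permutation test over libraries, two-sided p = 0.4; the smallest p possible with 3 against 3 is 0.1). Notch3, which is outside the 10 genes, had 0, 14 and 0 reads in CD206pos libraries and 14, 2 and 23 reads in CD206neg libraries.

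Rbpj (chromosome 5, 53466152 to 53657362, plus strand) encodes the DNA-binding partner of all Notch receptors, which represses its targets when no Notch is present. It was at 31.1, 48.0 and 40.8 scaled CPM in CD206pos libraries and at 17.8, 28.2 and 33.9 scaled CPM in CD206neg libraries. Rbpj was higher in CD206pos cells in 3 of 3 litters, though the lowest CD206pos library lay below the highest CD206neg library. The mean was 40.0 ± 8.49 scaled CPM in CD206pos cells and 26.7 ± 8.20 scaled CPM in CD206neg cells (SD, n = 3 each), a log2 fold change of 0.59 ± 0.30 (SE). Its 95% interval ran from -0.09 to 1.26 and its adjusted p was 0.365 in edgeR, and it did not pass with the litter as a block either (adjusted p = 0.191). Of the 50-base windows in Rbpj transcripts 10.6% also occur in transcripts of other genes, most of them in the pseudogene Rbpj-ps3, which held 5 to 11 reads per library, and reads from those windows cannot be assigned to 1 gene.

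The region around a RefSeq start of Rbpj is shown because of a motif search that covered 8 of the 10 genes. Among those 8, Rbpj is the only one in which it found the core of the motif that Rbpj protein binds. Each Rbpj window lies inside the span of the gene given above, and its outermost annotated start was not searched. RefSeq promoter windows (300 bases that span a transcription start, build GRCm38.p6) were given for 8 of the 10 genes, all but Hes1 and Hey1. The letters TGGGAA, read on either strand, occur in the windows of 1 of these 8 genes and in those of 28.3% of 27025 genes with windows. The longer form GTGGGAA, which contains TGGGAA, occurs in 0 of the 8 and in 7.25% of all genes with windows. In the first Rbpj window (chr5:53590096-53590395, plus strand) the matches, in capitals, begin 149 bases before the start on the plus strand and 65 bases before it on the minus strand. A match is a description of letters and not a binding site.
Rbpj: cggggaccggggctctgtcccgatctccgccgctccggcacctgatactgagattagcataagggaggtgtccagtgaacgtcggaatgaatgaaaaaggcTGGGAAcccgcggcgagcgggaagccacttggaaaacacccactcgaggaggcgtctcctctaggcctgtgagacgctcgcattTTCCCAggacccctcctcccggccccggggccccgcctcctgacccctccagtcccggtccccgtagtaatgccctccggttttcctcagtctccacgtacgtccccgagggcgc

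Of the targets, Hes1 was abundant and Hey1 sparse. Hes1 (chromosome 16, 30064384 to 30067796, plus strand) encodes a repressor of the helix-loop-helix class that many signals besides Notch also induce. It was at 15.0, 18.8 and 20.8 scaled CPM in CD206pos libraries and at 17.8, 11.5 and 10.1 scaled CPM in CD206neg libraries. CD206pos cells had more Hes1 in litters 2 and 3 and less in litter 1, where the log2 ratio of CD206pos over CD206neg was -0.25, against 0.72 and 1.04 in the others. Hes1 had a log2 fold change of 0.47 ± 0.32 (SE), with a 95% interval of -0.27 to 1.21 and an adjusted p of 0.538 (edgeR).

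Hey1 (chromosome 3, 8663359 to 8667256, minus strand), a repressor gene known as a Notch target in arterial endothelium, had 23, 0 and 46 reads in CD206pos libraries and 13, 0 and 27 reads in CD206neg libraries. Both libraries of litter 2 were without reads, and litters 1 and 3 had reads in both populations. Hey1 had a log2 fold change of 0.86 with a 95% interval of -3.09 to 4.81 (edgeR adjusted p = 0.876), an interval that covers large differences in either direction.

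The ligand genes were at low levels in both populations. Jag1 (chromosome 2, 137081456 to 137116644, minus strand), encoding Jagged-1, had 1, 30 and 54 reads in CD206pos libraries and 32, 29 and 51 reads in CD206neg libraries. In litters 2 and 3 the populations were close, with log2 ratios of CD206pos over CD206neg of 0.03 and 0.12, and litter 1 differed, with 1 read against 32. Jag1 had a log2 fold change of -0.36 ± 1.15 (SE; edgeR adjusted p = 0.93), and of 0.20 without CD206pos replicate 1 (adjusted p = 0.936).

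Jag2 (chromosome 12, 112907819 to 112929776, minus strand), encoding Jagged-2, had 32, 7 and 38 reads in CD206pos libraries and 36, 35 and 96 reads in CD206neg libraries. The populations were close in litter 1, and CD206pos cells had less in litters 2 and 3. The log2 fold change of Jag2 was -1.04 ± 0.90 (SE), with a 95% interval of -3.09 to 1.00 and an adjusted p of 0.648 (edgeR).

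Dll1 (chromosome 17, 15367354 to 15376872, minus strand), a Delta-like ligand known for its role in somites and in marginal zone B cells, was found in litter 2 only. It had 0, 42 and 0 reads in CD206pos libraries and 0, 25 and 0 reads in CD206neg libraries. The overlapping gene A930024N18Rik, which shares 867 bases of exon with Dll1 on the other strand, had 0 reads in all 6 libraries. The exact permutation test over libraries gave a two-sided p of 1.0. Xist, whose reads come from female embryos, had 0 reads in both libraries of that litter and 394 to 1931 reads in the others, and whether the make-up of the litters bears on Dll1 was not tested.

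Dll4 was the only one of the 10 genes whose groups did not overlap. Dll4 (chromosome 2, 119325784 to 119335962, plus strand) encodes the Delta-like ligand of arterial endothelium. It had 0, 0 and 4 reads in CD206pos libraries of litters 1, 2 and 3 and 33, 8 and 48 reads in CD206neg libraries, or 0.0770 ± 0.133 and 1.65 ± 1.13 scaled CPM (SD, n = 3 each). The ratio of reads in CD206pos over CD206neg cells was 0.0469 after scaling, with an exact binomial 95% interval of 0.0125 to 0.124 that covers counting error only. Every CD206pos library was lower than every CD206neg library, which gives a two-sided exact permutation p of 0.1, the smallest that 3 against 3 can give. Among tested genes 24.6% had groups that did not overlap, 11.8% with CD206pos below, so such a pattern in 1 of 10 genes is near the background, Dll4 itself not being among the tested genes. Dll4 was below the filter in the main fit and did not pass in any of the 6 alternatives that kept it (lowest adjusted p = 0.161, edgeR without CD206pos replicate 3).

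The CD206neg libraries, which held most Dll4 reads and all Notch4 reads, also had higher sums of endothelial and progenitor markers, given above. In CD206neg libraries of litters 1, 2 and 3 the endothelial sum was 353, 210 and 209 scaled CPM. The same libraries had 3, 0 and 25 Notch4 reads and 33, 8 and 48 Dll4 reads. Of the 12 endothelial markers 2, Tie1 and Erg, fell in CD206pos cells and 10 did not pass, and of 7 tested blood progenitor markers 6 fell. Of the 6 arterial markers, Sox17, Bmx and Gja4 had 0 reads in CD206pos libraries, while the summed list, led by Nrp1, was at 168 to 321 scaled CPM in CD206pos libraries and 96.8 to 166 scaled CPM in CD206neg libraries. Mesenchymal markers summed to 74.5 scaled CPM in CD206pos cells and 95.6 scaled CPM in CD206neg cells of litter 3, against 4.63 to 14.7 scaled CPM in the 4 other libraries. The part of these cells in the Dll4, Notch4 and Jag2 values was not tested, and in bulk samples fewer cells of a type and less RNA per cell cannot be told apart.

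**Figure D2:**
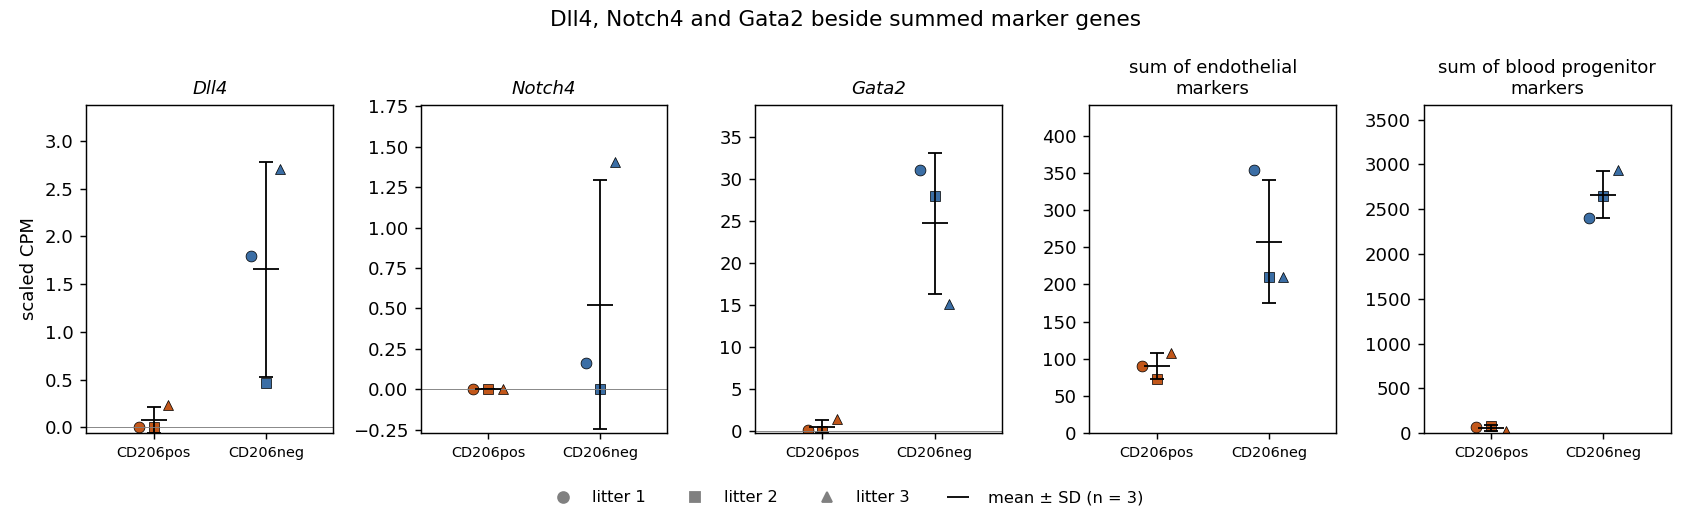
Scaled CPM of Dll4, Notch4 and Gata2, and of the summed endothelial (12 genes) and blood progenitor (8 genes) markers, in CD206pos (left) and CD206neg (right) libraries, with symbols for litters and bars for the mean ± SD of 3. Both marker sums are lower in every CD206pos library than in any CD206neg library, as Dll4 and Gata2 are.

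The window at the start of Dll4 (chr2:119325534-119325833, plus strand, RefSeq, GRCm38.p6) is shown because its reads separated the groups. It holds no TGGGAA. The letters CACGNG, a form of the box that Hes and Hey proteins bind, occur in it once, in capitals, beginning 195 bases before the start. CACGNG, searched on both strands, occurs in the windows of 5 of the 8 genes and of 30.3% of all genes with windows.
Dll4: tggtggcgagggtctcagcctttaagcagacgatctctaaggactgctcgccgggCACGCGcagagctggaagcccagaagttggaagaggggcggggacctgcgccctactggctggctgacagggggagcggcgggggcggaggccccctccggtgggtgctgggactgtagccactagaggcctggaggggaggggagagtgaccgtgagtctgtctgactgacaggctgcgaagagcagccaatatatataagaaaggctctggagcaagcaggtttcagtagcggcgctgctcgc

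Ranked by level per kilobase of exonic length, which allows genes to be compared, Hes1 led in both populations. In CD206pos cells the order was Hes1 at 8.93 ± 1.46, Notch2 at 5.63 ± 1.13, Rbpj at 3.13 ± 0.67 and Notch1 at 1.17 ± 0.24 scaled CPM per kb (SD, n = 3), and the libraries of each of these genes lay clear of those of the next. Below them, Hey1, Jag1, Jag2, Dll1, Dll4 and Notch4 averaged between 0.415 and 0 scaled CPM per kb, and no neighbours in that order were apart beyond their spread. In CD206neg cells Hes1 at 6.44 ± 2.03 and Notch2 at 6.06 ± 2.10 scaled CPM per kb overlapped, Hes1 being the higher in 1 of 3 libraries. Rbpj followed at 2.09 ± 0.64 scaled CPM per kb, and overlapped Notch1 at 1.38 ± 0.38, although it was the higher of the pair in 3 of 3 libraries. Jag2, Dll4, Jag1, Hey1, Dll1 and Notch4 averaged between 0.449 and 0.0649 scaled CPM per kb, and their neighbours overlapped too. The lengths are all annotated exons of a gene, so a gene transcribed from a short isoform is placed too low.

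The wider pathway was described with 77 genes sorted by role, which include the 10. Of these 62 passed the filter, and 3 of the 62 (4.84%) were called, against 4.87% of all genes tested. The median log2 fold change of the 62 was -0.23, and 26 were above 0 and 36 below. The groups did not overlap for 18 of the 62 (29.0%), against 24.6% of all genes tested. The called genes were Ccnd1, which rose, and Nedd4 and Gata2, which fell, in CD206pos cells, and none of them is a receptor, ligand, protease or Hes or Hey gene.

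**Figure D3:**
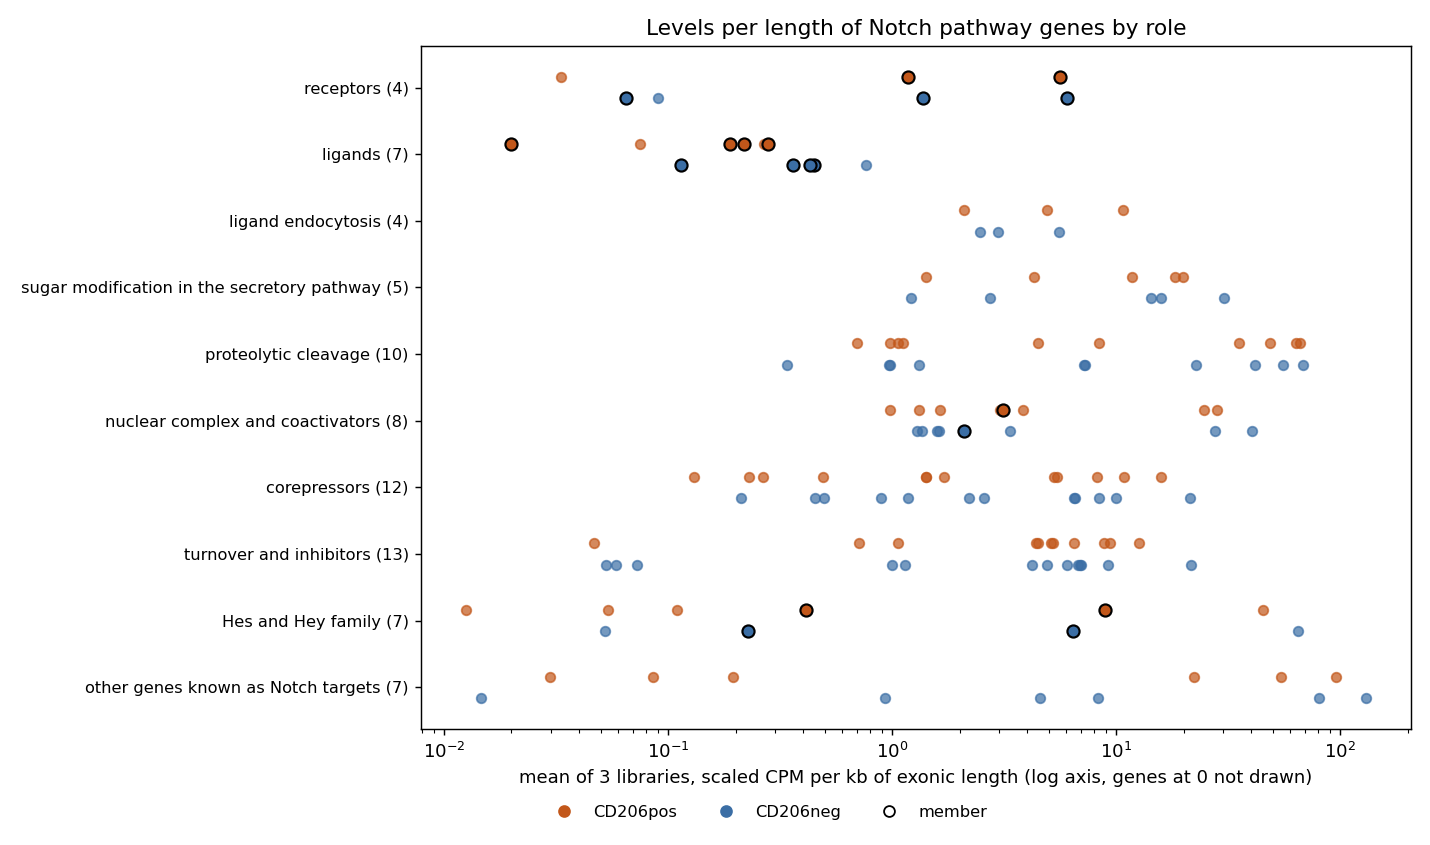
Mean level of each of the 77 pathway genes in scaled CPM per kb of exonic length (horizontal log axis) by role, with CD206pos above CD206neg in each row and the 10 members outlined in black. Ligand genes stay under 1 scaled CPM per kb in both populations, with Dlk1 in CD206neg cells highest at 0.762, while the proteolytic cleavage gene Ncstn is at 63.7 in CD206pos and 55.4 in CD206neg cells.

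Nedd4, a ubiquitin ligase that in Drosophila dampens Notch signalling, was at 63.2, 39.8 and 41.1 scaled CPM in CD206pos libraries and at 289, 211 and 209 scaled CPM in CD206neg libraries. It was 4.92-fold lower in CD206pos cells, in 3 of 3 litters and with no overlap of the groups. The log2 fold change of Nedd4 was -2.30 ± 0.23 (SE; edgeR adjusted p = 0.00167), and without both libraries of litter 2 it was -2.29 with an adjusted p of 0.0811. Itch and Dtx4, ubiquitin ligases also linked to Notch turnover, had log2 fold changes of 0.48 and 0.34 and did not pass (adjusted p = 0.435 and 0.745, edgeR).

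Gata2, a transcription factor gene of blood progenitors known as a direct target of Notch1 and Rbpj in the mouse AGM, was at 0.0610, 0 and 1.33 scaled CPM in CD206pos libraries and at 31.1, 27.9 and 15.1 scaled CPM in CD206neg libraries. Its mean was 53.4-fold lower in CD206pos cells, and the groups did not overlap. Of the 24 CD206pos reads of Gata2, 23 were in litter 3. The log2 fold change of Gata2 was -5.71 ± 1.08 (SE; edgeR adjusted p = 0.0218). Without CD206pos replicate 3 it was -9.42 and without litter 3 it was -9.68, values fitted to 1 CD206pos read that depend on the prior count (adjusted p = 0.00342 and 0.0106). Gata2 did not pass in limma-voom (adjusted p = 0.0754), nor in edgeR when CD206pos replicate 1 or 2 or CD206neg replicate 1, 2 or 3 was left out (adjusted p between 0.0502 and 0.113), nor without litter 1 or litter 2 (adjusted p = 0.141 and 0.205). Gata2 and the summed blood progenitor markers were both lower in CD206pos than in CD206neg libraries. Within a population Gata2 and this sum did not move together. In CD206neg libraries of litters 1, 2 and 3 Gata2 fell while the marker sum rose, at 2405, 2647 and 2932 scaled CPM. Most of that sum was Mpo, at 1493, 1972 and 2277 scaled CPM. Flt3 fell with Gata2 over the same libraries, at 46.5, 40.5 and 20.5 scaled CPM. Gfi1b did so as well, at 28.5, 23.4 and 17.8 scaled CPM. Myb fell too, Gfi1 rose, and Kit and Cd34 moved neither way throughout. Spink2 had reads in litter 3 only. In CD206pos cells litter 3 held the most Gata2 and the lowest marker sum, 25.0 scaled CPM. The part of progenitor cells in the Gata2 values was not tested.

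Ccnd1, encoding cyclin D1 of the G1 phase and listed among genes Notch can induce, was at 85.9, 125 and 102 scaled CPM in CD206pos libraries and at 48.3, 31.7 and 37.7 scaled CPM in CD206neg libraries. It rose 2.66-fold in CD206pos cells, with a log2 fold change of 1.41 ± 0.23 (SE; edgeR adjusted p = 0.0102) and the same direction in 3 of 3 litters. The call was lost without CD206pos replicate 2 and without CD206neg replicates 2 or 3 (adjusted p = 0.0633, 0.068 and 0.0505), and without litter 2 or litter 3 (adjusted p = 0.223 and 0.12). Myc, another gene that Notch can induce, was at 260 ± 51.9 scaled CPM in CD206pos cells and 353 ± 112 scaled CPM in CD206neg cells (SD, n = 3 each; edgeR adjusted p = 0.436). Cdca7, a Myc-responsive gene known as a Notch target in the mouse AGM, was at 213, 181 and 127 scaled CPM in CD206pos libraries and at 290, 278 and 203 scaled CPM in CD206neg libraries. Its log2 fold change of -0.56 did not pass (adjusted p = 0.224) but did so with the litter as a block (log2 fold change -0.58, adjusted p = 0.0409, edgeR).

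Among the 10 cleavage genes levels ranged widely. Nicastrin (Ncstn), a subunit of gamma-secretase, was at 253 ± 58.7 scaled CPM in CD206pos cells and 220 ± 8.27 scaled CPM in CD206neg cells (SD, n = 3 each). Its log2 fold change was 0.20, with a 95% interval of -0.20 to 0.61 and an adjusted p of 0.653 (edgeR). The Aph1 subunits had low counts, Aph1a being at 2.42 ± 0.534 scaled CPM in CD206pos cells and 3.36 ± 0.369 scaled CPM in CD206neg cells (chosen after its values were seen). Overlap with exons of other genes, where reads are not assigned, was not examined for the Aph1 genes. None of the cleavage genes passed in edgeR, and DESeq2 called 1, Adam17, which was named after its values were seen and encodes a sheddase of many surface proteins (DESeq2 log2 fold change 0.63, adjusted p = 0.0457; edgeR adjusted p = 0.138, and 0.0403 without CD206pos replicate 1).

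Among enzymes that add sugars to Notch, Mfng (Manic fringe), which alters the response of a receptor to its ligands, was at 54.4, 52.0 and 49.3 scaled CPM in CD206pos libraries and at 107, 81.8 and 69.1 scaled CPM in CD206neg libraries. The groups did not overlap, but the log2 fold change of -0.73 ± 0.20 (SE) did not pass in edgeR (adjusted p = 0.0895), and DESeq2 called it (adjusted p = 0.0148). Poglut1, the O-glucosyltransferase of Notch, had a log2 fold change of -0.42 (edgeR adjusted p = 0.287), and 0 of 5 sugar-modifying genes passed. For ligand endocytosis, Neurl1a (Neuralized) was at 36.5, 52.1 and 52.7 scaled CPM in CD206pos libraries and at 25.2, 30.5 and 18.2 scaled CPM in CD206neg libraries. It did not pass in edgeR (log2 fold change 0.93 ± 0.27, SE; adjusted p = 0.0995) and did in DESeq2 (adjusted p = 0.0267), and Mib1, the other main ligase of this step, had a log2 fold change of -0.23 (edgeR adjusted p = 0.852).

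Of 8 genes of the nuclear complex and 12 of its corepressors, 0 passed in edgeR. The coactivator genes Snw1 and Kat2a had log2 fold changes of -0.16 and -0.51 (adjusted p = 0.732 and 0.191, edgeR), and the corepressor genes Kdm5a and Ncor1 of -0.26 and -0.31 (adjusted p = 0.705 and 0.656). Hes6, a Hes protein known to oppose Hes1, was the most abundant of its family, at 45.2 scaled CPM per kb in CD206pos cells and 64.6 scaled CPM per kb in CD206neg cells. Its groups did not overlap, and its log2 fold change of -0.52 ± 0.17 (SE) had an adjusted p of 0.152 (edgeR). The noncanonical ligand gene Dlk1 had 0, 7 and 15 reads in CD206pos libraries and 73, 82 and 75 reads in CD206neg libraries, a difference called by DESeq2 (adjusted p = 0.029) but not by edgeR (log2 fold change -3.33 ± 1.18, SE; adjusted p = 0.181).

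**Figure D4:**
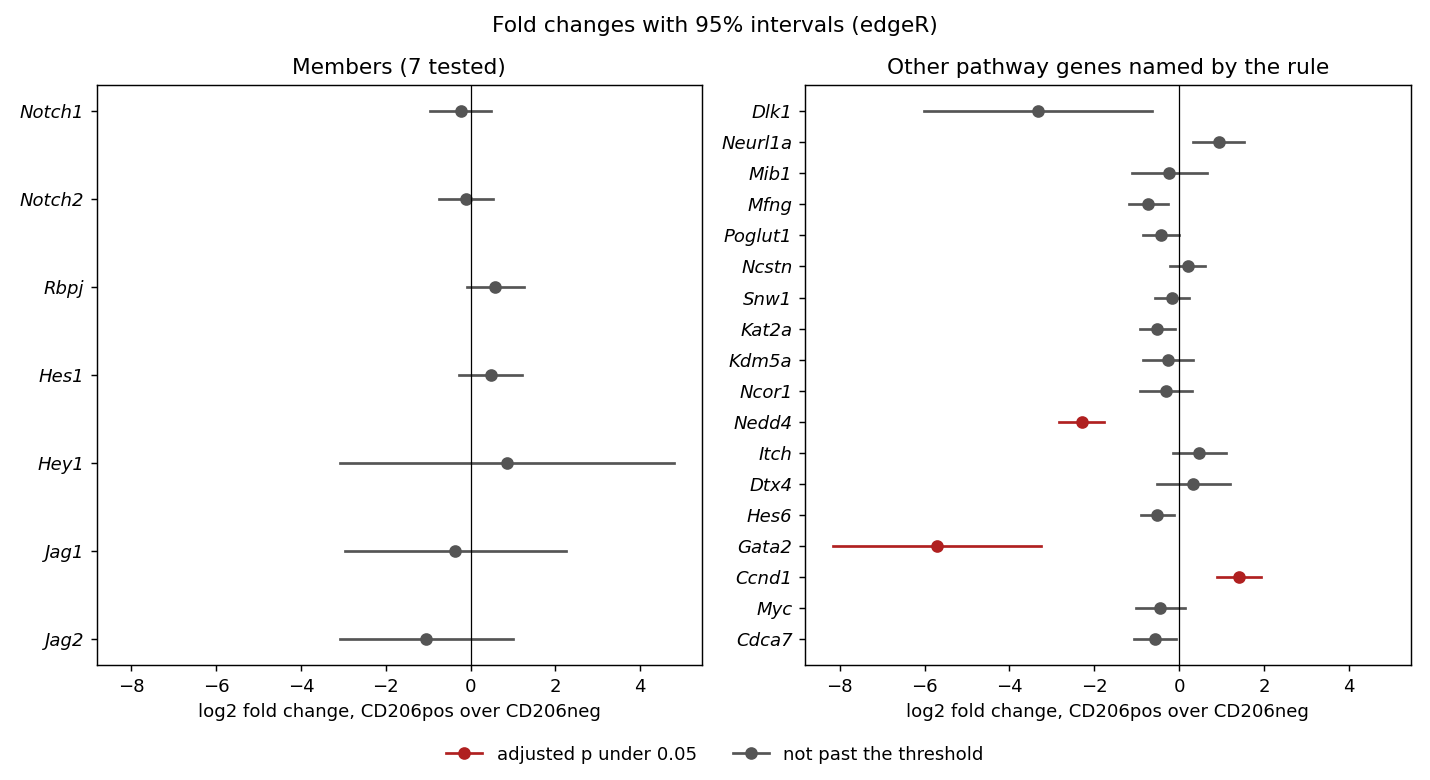
Log2 fold change of CD206pos over CD206neg with its 95% interval (edgeR) for the 7 tested members (left) and for the other pathway genes named by the rule (right). Intervals of all 7 members cover 0, and 3 genes on the right, Nedd4, Gata2 and Ccnd1, pass the adjusted threshold of 0.05 (red).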

How the data were processed

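RNA-seq was analysed in 6 libraries, 3 of CD206pos and 3 of CD206neg cells, grouped by their labels. Each deposited file holds raw counts per gene, made by the authors with featureCounts 1.5.2 over exons of GENCODE vM14, with no option for strand, pairs, multi-mapping reads or overlapping genes, per the file headers; they also give the exonic length, in bases. The submitters' processing notes name STAR 2.3 and the builds mm10 and GRCm38.p5. Digestion lasted 45 min at 37 degrees Celsius, per the labels' protocols. Symbols came from GENCODE M21 identifiers, which matched 51633 of 51912.

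Counts were kept by filterByExpr, scaled by TMM over library totals and tested with edgeR 4.0.16 (quasi-likelihood, robust, no litter term) in R 4.3.3, with Benjamini-Hochberg adjustment over 12668 genes. The fit was tested on simulated data. An SE is the log2 fold change divided by the square root of F. Genes below the filter were compared by exact permutation. DESeq2 1.42.0 and limma-voom (limma 3.58.1) were alternatives, besides other scalings, filters, the litter block and leaving out libraries or litters.

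The series design names 3 litters, and equal AGM numbers were read as 1 litter; deviations from group means correlated at 0.13, 0.05 and 0.20 within litters 1, 2 and 3, and p-values measure the spread between these pools. The members and the lists were chosen with earlier results of these data known. Named pathway genes are those called, and up to 2 tested but uncalled genes per role with the highest mean CPM; 1 gene under this rule is not reported here. The rule for genes of like pattern applied to called members and gave none.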

Additional observations from a re-analysis of the deposited data

How the results depend on the processing

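None of the 10 genes was called under any of the 18 alternatives that tested it, with the lowest adjusted p values at 0.161 for Dll4 and 0.191 for Rbpj. Rbpj and Hes1 kept a positive and Jag2 a negative log2 fold change in all alternatives that tested them. Leaving out libraries or litters turned the direction of Notch1 (-0.505 to 0.033), Notch2 (-0.340 to 0.162), Jag1 (-1.239 to 0.204) and Hey1 (-0.133 to 1.912), and of the uncalled Mib1 (-0.548 to 0.272), Ncstn (-0.034 to 0.379), Snw1 (-0.377 to 0.034) and Dtx4 (-0.022 to 0.681); the cause was not tested. Of the wider pathway 3 genes were called, against 7 with DESeq2, 2 with limma-voom, 4 with the replicate block, and 0 to 3 on leaving out a library or litter, 0 of them without litter 2. Over all genes 617 were called, 699 with the replicate block, 1210 with DESeq2, and 3 to 561 on leaving out a library or litter, the lowest without litter 2; fewer samples entered those fits. The block called Cdca7 and changed no other call among the named genes. Without length, 4 of the 10 genes kept their rank, with Notch2 at rank 1 and Hes1 at rank 4. With library totals as the only scaling the calls split into 273 higher and 284 lower, against 376 and 241. Notch4, Dll1, Dll4 and Hey1 rest on 28 to 109 reads over all libraries, which limits their precision; Dll1 and Hey1 also varied by litter.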

Other observations

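Some pathway genes were absent or seen in few libraries. Hes5, Dlk2, Neurl1b and Il2ra, the last encoding a chain of the interleukin 2 receptor, had 0 reads in all 6 libraries. The Delta-like gene Dll3 had 9, 0 and 30 reads in CD206pos libraries of litters 1, 2 and 3 and 0 reads in each CD206neg library. The target gene Heyl had 29 reads in the CD206pos library of litter 3 and 0 in the 5 other libraries. The feedback inhibitor gene Nrarp had 0 reads in each CD206pos library and 1, 3 and 6 reads in CD206neg libraries, so its groups did not overlap although the counts are at or near the limit of detection. The T-cell gene Gata3, also known as a Notch target, had 6, 0 and 34 reads in CD206pos libraries and 92, 61 and 45 reads in CD206neg libraries (no overlap; log2 fold change -2.24, edgeR adjusted p = 0.454). Maml2, a Mastermind-like coactivator gene, was at 20.1 ± 8.77 scaled CPM in CD206pos cells and 8.53 ± 2.06 scaled CPM in CD206neg cells (SD, n = 3 each), with groups that did not overlap and a log2 fold change of 1.23 ± 0.40 (SE) that did not pass (edgeR adjusted p = 0.148). These genes were chosen after their values were seen.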
